A study of Mus musculus with 11 samples.

Results

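The respiratory chain genes described here are the protein-coding genes in the count files whose GRCm38 symbol begins with mt-, Nduf, Uqcr or Atp5. There were 84 such genes among the 38561 genes counted, of which 71 are nuclear and 13 lie on the mitochondrial genome. RNA was sequenced from facial process explants, which hold the nasal processes and the upper and lower parts of the branchial arch that form the jaws, of mouse embryos at embryonic day 10.5 (E10.5) on a mixed strain background. The 11 libraries were 2 labelled wild type (wt), 3 labelled as homozygous for the *Rspo2* mutation (*Rspo2*KO), 3 as homozygous for the *Wnt9b* mutation (*Wnt9b*KO) and 3 as homozygous for both (DKO). The labels give the mutations by gene and not by allele, name no treatment, Cre or transgene, and do not say whether explants were pooled or which embryos shared a litter. The p-values below therefore measure the spread between these libraries.

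The respiratory chain sits in the inner mitochondrial membrane. Complex I oxidises NADH, complex III passes the electrons on to cytochrome c, complex IV hands them to oxygen, and ATP synthase uses the resulting proton gradient to make ATP. Most subunits are encoded in the nucleus and imported as proteins. A small set of core subunits of complexes I, III and IV and of ATP synthase is made inside the organelle from the mitochondrial genome, which is transcribed as long precursors from both strands and cut into mRNAs, 2 rRNAs and 22 tRNAs, so that each complex other than complex II is assembled from products of both genomes.

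Total counts ranged from 11136166 to 18017344 per library. Of the 38561 genes, 17317 were tested, among them all 71 nuclear members and 12 of the 13 mitochondrial-genome members. Levels are given as CPM, a gene's count relative to the total of its library after scaling by TMM factors, and a difference is on the log2 scale with its standard error (SE). *Rspo2* was at 14.8 and 16 CPM in wt and at 4.73 to 6.58 CPM in *Rspo2*KO. The libraries labelled *Wnt9b*KO 2 (2.86 CPM) and DKO 3 (15.5 CPM) went against their labels, while *Wnt9b* (wt 10.8 and 13.4 CPM, *Wnt9b*KO 16.2 to 23.3 CPM) was not lower in the mutants and so could not be used to check the labels. Libraries described below as with or without a mutation are so by label. *Xist* was at 679 to 1468 CPM in the wt and DKO libraries and below 2 CPM in all *Rspo2*KO and *Wnt9b*KO libraries, so that sex and genotype cannot be told apart in any comparison below other than that of DKO with wt, nor in the interaction. The Y-linked gene *Ddx3y* was at 57.5 to 75.7 CPM in *Rspo2*KO and *Wnt9b*KO and at 1.07 and 0.121 CPM in wt. It was at 0.0587 and 0.124 CPM in DKO 1 and DKO 2 but at 4.43 CPM in DKO 3, and the source of this was not tested. All 15 facial mesenchyme markers and all 8 facial epithelium markers were at 1 CPM or more in every library.

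The summed level of the 71 nuclear members was lower in every library that carried the *Wnt9b* mutation by label. It was 8235 and 8384 CPM in wt, 6451, 8177 and 7851 CPM in *Rspo2*KO, 5438, 5333 and 5800 CPM in *Wnt9b*KO and 5638, 5863 and 6396 CPM in DKO. The *Wnt9b*KO and DKO libraries lay below both wt libraries and below all 3 *Rspo2*KO libraries, the nearest being DKO 3 and *Rspo2*KO 1. In tissue sequenced in bulk, fewer cells rich in mitochondria and less of these RNAs per cell cannot be told apart.

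**Figure D1:**
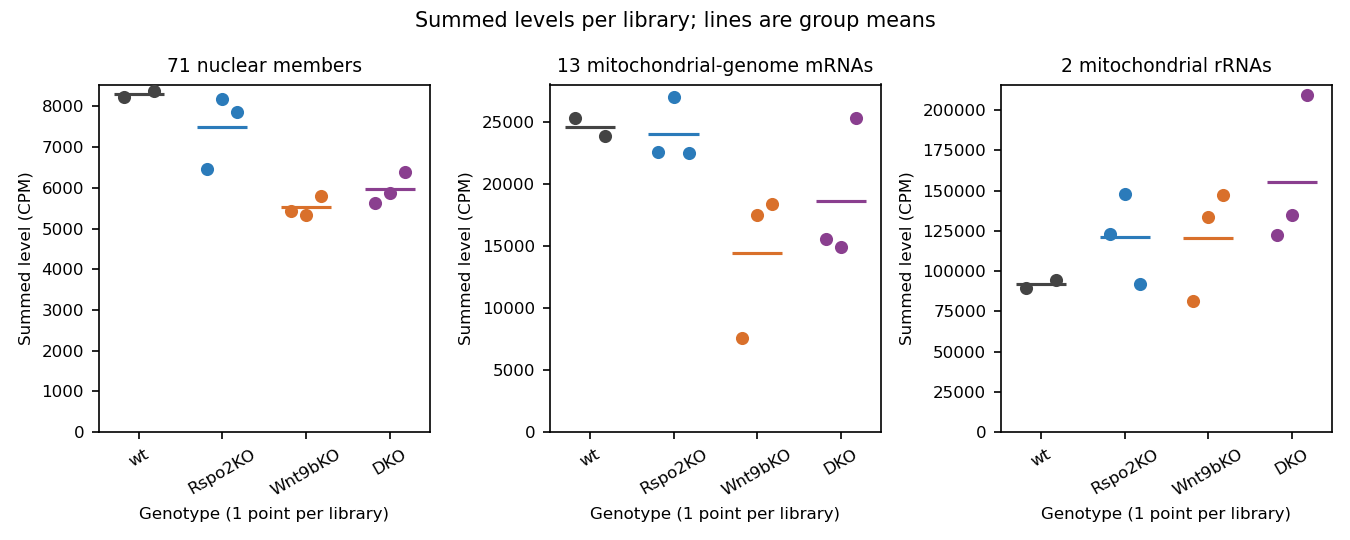
Summed level in CPM (vertical axes, from 0) of the 71 nuclear members, the 13 mitochondrial-genome mRNAs and the 2 mitochondrial rRNAs, by genotype; each point is a library and each line a group mean. Nuclear members lie between 5333 and 6396 CPM in all *Wnt9b*KO and DKO libraries and at 8235 and 8384 CPM in wt, whereas the mitochondrial-genome mRNAs of *Wnt9b*KO and DKO range from 7546 to 25260 CPM.

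To determine which respiratory chain genes differed with the *Wnt9b* mutation, the libraries labelled *Wnt9b*KO were compared with wt. The answer was nearly uniform among the nuclear members: 57 of 71 fell, none rose, and the other 14 had negative values that did not pass the test. Among all genes tested, 16% were called lower and 16.8% higher in this comparison. The median log2 fold change of the 71 members was -0.74 (a 1.67-fold lower level), against 0.01 over all genes tested. In 66 of 71 members every *Wnt9b*KO library lay below both wt libraries, which was so for 28% of all genes tested. The number called was 48 without wt 1 and 47 without wt 2. Without the libraries labelled *Wnt9b*KO 2 and DKO 3, 53 nuclear members were called lower with a median of -0.67.

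The DKO libraries, compared with the same 2 wt libraries, gave 48 of 71 nuclear members lower and none higher, where 13.1% of all genes tested were called lower and 14.3% higher. The median log2 fold change was -0.54, and 64 of 71 members were below wt in every DKO library, against 28.6% of all genes. The number called rested on single libraries: it was 21 without wt 2, 30 without wt 1 and 28 without DKO 1, with medians of -0.46, -0.61 and -0.48. Without the libraries labelled *Wnt9b*KO 2 and DKO 3 it was again 48.

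**Figure D2:**
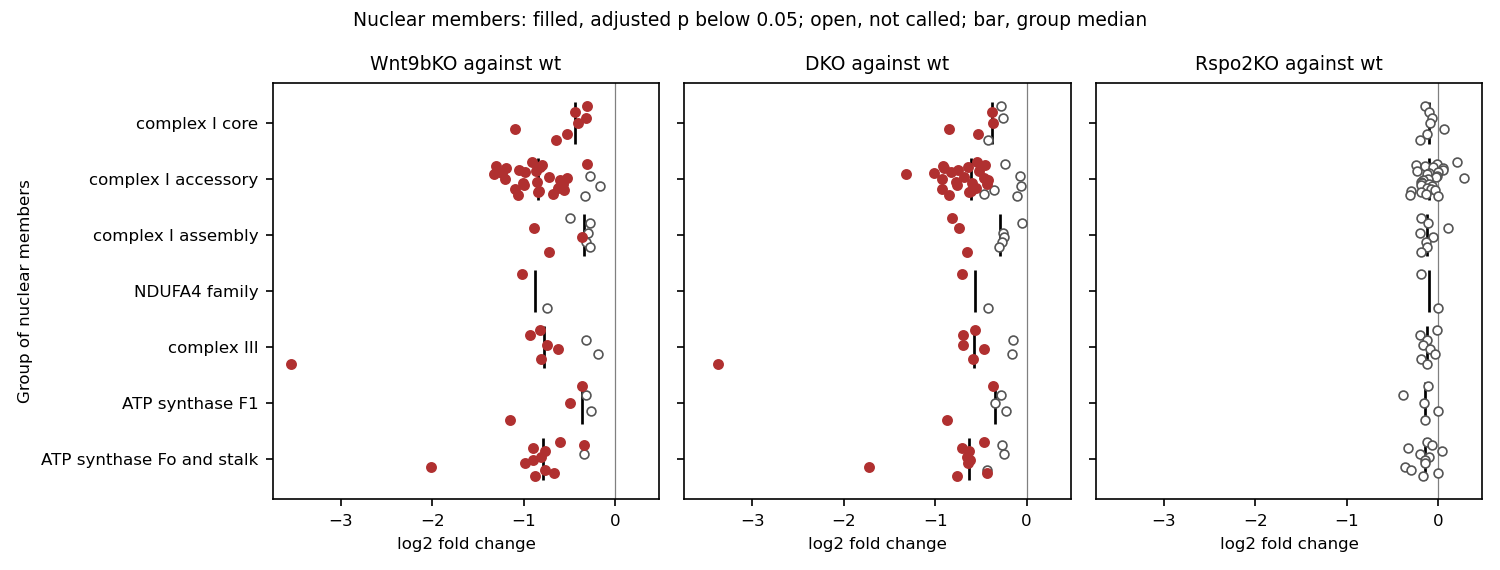
log2 fold change (horizontal axes) of the 71 nuclear members, grouped by the complex they belong to, in *Wnt9b*KO, DKO and *Rspo2*KO against wt; each point is a gene, filled where the adjusted p was below 0.05, and each bar a group median. All 71 points are below 0 in *Wnt9b*KO and in DKO, *Uqcrq* and *Atp5l* stand apart at the left, and no point is filled in *Rspo2*KO.

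The members of complex III included the gene with the largest difference. *Uqcrq* (ENSMUSG00000044894, chr11:53427922-53430831, minus strand), which encodes a small subunit of complex III, was at 91.4 and 97.6 CPM in wt and at 72.7, 90.2 and 97.8 CPM in *Rspo2*KO. It was at 7.07, 7.33 and 9.83 CPM in *Wnt9b*KO and at 8.68, 7.96 and 10.7 CPM in DKO. The 6 libraries labelled with the *Wnt9b* mutation thus held a tight low group, far from the 5 libraries labelled without it, which overlapped between wt and *Rspo2*KO. The log2 fold change was -3.55 ± 0.17 (SE; 11.7-fold lower, adjusted p = 1.14e-08) in *Wnt9b*KO and -3.37 ± 0.16 (10.4-fold lower, adjusted p = 3.15e-08) in DKO, and it stayed between -3.69 and -3.28 in all 23 alternatives of both comparisons, each of them called.

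Of the 8 complex III members, 6 fell in *Wnt9b*KO and 6 in DKO. *Uqcrc1*, which encodes a core protein of the complex, was at 219 ± 15.6 CPM in wt (SD, n = 2), 196 ± 13.2 in *Rspo2*KO, 131 ± 8.14 in *Wnt9b*KO and 135 ± 6.09 in DKO (n = 3 each). It fell by 0.74 ± 0.10 on the log2 scale in *Wnt9b*KO (adjusted p = 0.000151) and by 0.70 ± 0.10 in DKO (adjusted p = 0.000267). *Uqcr11*, a small accessory subunit, fell from 113 and 120 CPM in wt to between 54.6 and 66.7 CPM in *Wnt9b*KO (log2 fold change -0.93 ± 0.14, adjusted p = 0.000286), and *Uqcr10* fell from 74.5 and 97.5 CPM to between 43.8 and 55.2 CPM (-0.82 ± 0.15, adjusted p = 0.00107). The hinge protein gene *Uqcrh* was lower by 0.81 ± 0.16 in *Wnt9b*KO (adjusted p = 0.00159). The other 2, named after their values were seen, did not pass. *Uqcrb*, which encodes a small subunit, was at 56.3 and 54.7 CPM in wt, 35.1, 45.4 and 53 CPM in *Wnt9b*KO and 46.2, 45.4 and 58.1 CPM in DKO (-0.32 ± 0.17, adjusted p = 0.172 in *Wnt9b*KO). *Uqcrfs1*, which encodes the Rieske iron-sulphur protein, was at 82.8 and 88.2 CPM in wt and at 79.6, 66.5 and 78.5 CPM in *Wnt9b*KO, a difference of -0.19 ± 0.12 (adjusted p = 0.255).

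**Figure D3:**
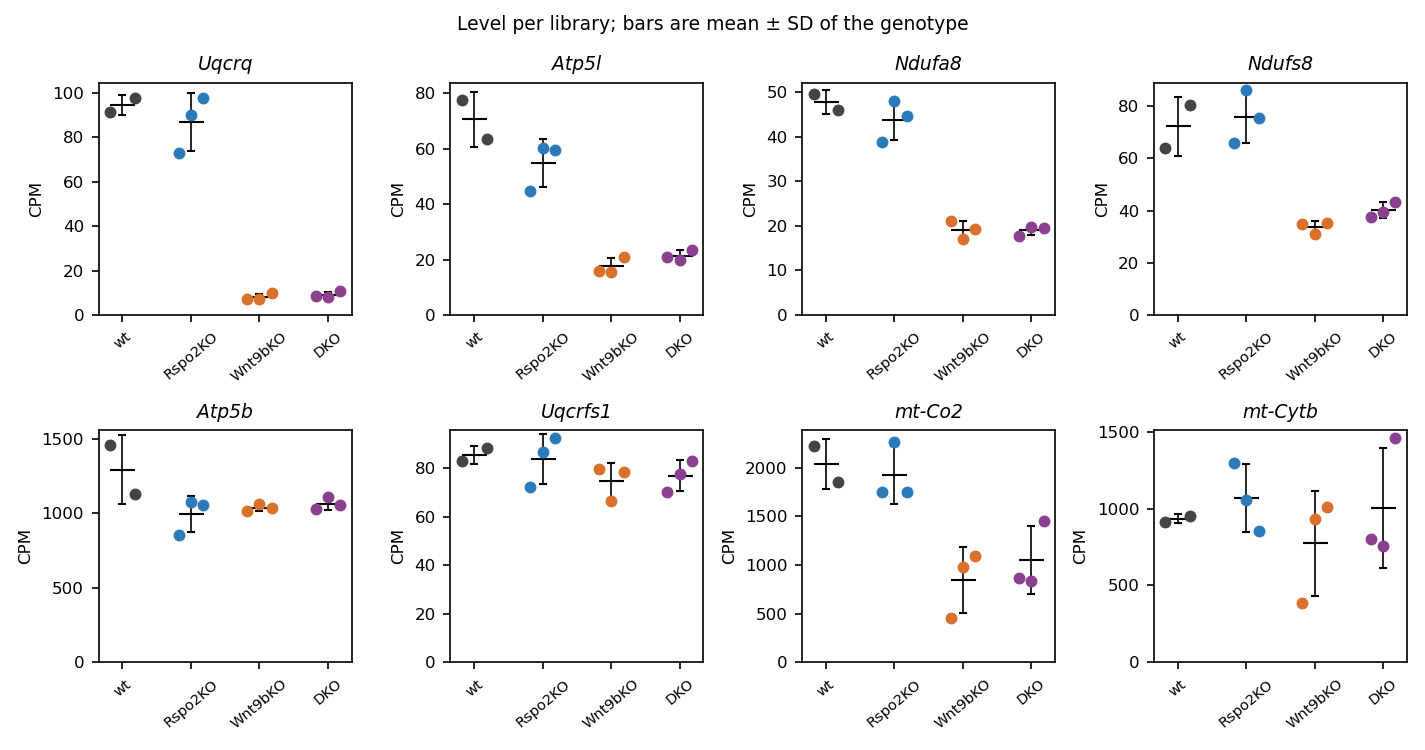
Level in CPM (vertical axes, from 0) of 8 members by genotype; points are libraries and bars the mean ± SD. *Uqcrq*, *Atp5l*, *Ndufa8* and *Ndufs8* separate the *Wnt9b*KO and DKO libraries from the others, *Atp5b* and *Uqcrfs1* were not called, and *mt-Co2* and *mt-Cytb* show the wider spread of the mitochondrial-genome genes, with *Wnt9b*KO 1 lowest in both.

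Complex I is the largest complex of the chain. Its 7 nuclear core subunits, which carry the flavin and iron-sulphur clusters, fell in *Wnt9b*KO without exception, with a median log2 fold change of -0.44, and 4 of them fell in DKO. *Ndufs8*, which encodes a core subunit that binds iron-sulphur clusters (ENSMUSG00000059734, chr19:3908863-3912774), changed most. It was at 64.2 and 80.4 CPM in wt, 66.1 to 86.2 in *Rspo2*KO, 34.9, 31.1 and 35.2 in *Wnt9b*KO and 37.5, 39.5 and 43.5 in DKO, with no overlap between the libraries with and without the *Wnt9b* mutation. The log2 fold change was -1.10 ± 0.13 in *Wnt9b*KO (adjusted p = 5.24e-05) and -0.85 ± 0.13 in DKO (adjusted p = 0.000425). *Ndufv1*, which binds NADH, fell by 0.53 ± 0.11 in both *Wnt9b*KO (adjusted p = 0.00219) and DKO (adjusted p = 0.00286). In DKO its adjusted p was 0.0514 without wt 2. *Ndufv2* fell by 0.65 ± 0.15 in *Wnt9b*KO (adjusted p = 0.00493, and 0.0681 without wt 1), while its value of -0.42 ± 0.15 in DKO did not pass (adjusted p = 0.055).

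The 29 accessory subunits surround the core, and many of them are needed for its assembly and stability. In *Wnt9b*KO 26 of them fell, with a median of -0.84, and in DKO 23 fell, with a median of -0.61. *Ndufa8* (ENSMUSG00000026895, chr2:36036326-36049406), a subunit of the intermembrane space face, was at 49.6 and 45.9 CPM in wt, 38.8 to 47.9 in *Rspo2*KO, 21, 17.1 and 19.3 in *Wnt9b*KO and 17.7, 19.8 and 19.6 in DKO. Its log2 fold change was -1.32 ± 0.12 in *Wnt9b*KO and -1.32 ± 0.12 in DKO (adjusted p = 7.93e-06 in each). *Ndufa12* was at 89.9 and 103 CPM in wt and at 38.5, 35.7 and 43.4 CPM in *Wnt9b*KO (-1.30 ± 0.15, adjusted p = 4.24e-05), and *Ndufa7* fell from 99.8 and 95.6 CPM to between 34.9 and 48.4 CPM (-1.24 ± 0.16, adjusted p = 7.46e-05). *Ndufa2* was at 60.6 and 85.2 CPM in wt and at 38.4, 23.7 and 33.8 CPM in *Wnt9b*KO (-1.19 ± 0.20, adjusted p = 0.000579). In DKO its value was -0.90 ± 0.20 (adjusted p = 0.00446), a call lost without wt 2 (adjusted p = 0.0939). Over all alternatives the DKO value lay between -1.13 and -0.63. *Ndufb2*, which has the third lowest level per kilobase of transcript among nuclear members, fell by 0.60 ± 0.12 in *Wnt9b*KO (adjusted p = 0.0019). By contrast *Ndufb7*, named after its values were seen, was at 57.9 and 63.7 CPM in wt and overlapped with the 47.9 to 64.6 CPM of *Wnt9b*KO (-0.16 ± 0.13, adjusted p = 0.359).

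*Ndufa1* and *Ndufb11* are the X-linked members, and they are given because the wt and DKO libraries differ from the single mutants in *Xist*. *Ndufa1* was at 19.2 and 26.6 CPM in wt, 23.5 to 31.4 in *Rspo2*KO, 11 to 13.6 in *Wnt9b*KO and 14.5 to 17.6 in DKO. *Ndufb11* was at 73.7 and 88.1 CPM in wt, 66.4 to 79.7 in *Rspo2*KO, 30.3 to 39.7 in *Wnt9b*KO and 38.8 to 48.6 in DKO. Both were low in the libraries of either *Xist* state that carried the *Wnt9b* mutation. Their log2 fold changes in *Wnt9b*KO were -0.91 ± 0.17 (adjusted p = 0.00121) and -1.20 ± 0.14 (adjusted p = 4.28e-05), within the range of the autosomal accessory subunits. In DKO they were -0.54 ± 0.17 (adjusted p = 0.0291) and -0.93 ± 0.14 (adjusted p = 0.000333). The DKO call of *Ndufa1* was lost without wt 2, DKO 1 or DKO 2 and with an offset for GC content and length, with an adjusted p of up to 0.388 over its alternatives.

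The assembly factors, which help to build complex I but are not part of it, were called in smaller numbers: 3 of 8 fell in *Wnt9b*KO, with a median of -0.34, and 3 of 8 in DKO, with a median of -0.29, where 16% and 13.1% of all genes were called lower. *Ndufaf3* was at 13.4 and 15.5 CPM in wt, 7.5 to 8.27 in *Wnt9b*KO and 7.74 to 10.2 in DKO, and fell by 0.89 ± 0.18 (adjusted p = 0.00164) and 0.74 ± 0.18 (adjusted p = 0.00646, and 0.0834 without wt 2). *Ndufaf8* fell by 0.72 ± 0.19 in *Wnt9b*KO (adjusted p = 0.00938), a call lost without wt 1 and with an offset for GC content and length (adjusted p up to 0.074). *Ndufaf1* was at 20.5 and 17.7 CPM in wt and at 16.8, 9.77 and 14.2 CPM in *Wnt9b*KO, where the library labelled *Wnt9b*KO 1 came close to wt and the value of -0.49 ± 0.18 did not pass (adjusted p = 0.0554). In DKO it was at 10.8 to 11 CPM and fell by 0.81 ± 0.19 (adjusted p = 0.00553, and 0.059 without wt 1). Whether assembly factors and subunits differ in their change was not tested.

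*Ndufa4*, which has a complex I symbol but is known as a subunit of complex IV and was kept apart here, was at 194 and 180 CPM in wt, 131 to 186 in *Rspo2*KO, 64.8, 95.7 and 117 in *Wnt9b*KO and 102, 105 and 136 in DKO. It fell by 1.02 ± 0.20 in *Wnt9b*KO (adjusted p = 0.00179) and by 0.71 ± 0.20 in DKO (adjusted p = 0.0181), the latter call being lost without either wt library or without DKO 1 or DKO 2 (adjusted p up to 0.12). Its relative *Ndufa4l2*, a gene known to be induced by hypoxia, was below 1 CPM in every library (0.235 to 0.849 CPM) and was not called in any comparison.

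In ATP synthase the membrane and stalk genes contained more calls than the catalytic head. Of 12 genes of the Fo part and the stalk 11 fell in *Wnt9b*KO (median -0.79) and 9 in DKO (median -0.63), and of 5 genes of the F1 head 3 fell in *Wnt9b*KO (median -0.36) and 2 in DKO (median -0.34). The difference between the groups was not tested. *Atp5l* (ENSMUSG00000038717, chr9:44912557-44920742), which encodes subunit g of the Fo part, stood apart with 77.6 and 63.7 CPM in wt, 44.9, 60.3 and 59.6 in *Rspo2*KO, 16, 15.5 and 21.1 in *Wnt9b*KO and 20.9, 19.9 and 23.6 in DKO. All 6 libraries with the *Wnt9b* mutation lay well below the other 5. It fell by 2.01 ± 0.16 in *Wnt9b*KO (4.02-fold lower, adjusted p = 1.74e-06) and by 1.72 ± 0.16 in DKO (3.28-fold lower, adjusted p = 7.23e-06), in each of 23 alternatives.

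*Atp5k*, subunit e of the Fo part, was at 83.9 and 89.6 CPM in wt and at 39.5, 36.9 and 54.3 CPM in *Wnt9b*KO (-0.99 ± 0.16, adjusted p = 0.000402). *Atp5g1*, *Atp5g2* and *Atp5g3* encode the same c-ring protein with different import sequences, and their log2 fold changes were -0.34 ± 0.12 (adjusted p = 0.0413), -0.90 ± 0.12 (adjusted p = 0.000115) and -0.77 ± 0.13 (adjusted p = 0.000775) in *Wnt9b*KO, differences among the 3 not being tested. *Atp5g1* was at 54.1 and 57 CPM in wt and at 38.6, 46.9 and 46.4 CPM in *Wnt9b*KO, and its call held in 12 of 23 alternatives (adjusted p up to 0.203), being lost on leaving out wt 1, wt 2, *Wnt9b*KO 1, *Wnt9b*KO 3, *Rspo2*KO 2, *Rspo2*KO 3, DKO 1 or DKO 2. *Atp5g2* (wt 81.6 and 77.2 CPM, *Wnt9b*KO 40.9 to 44.6 CPM) and *Atp5g3* (wt 134 and 180 CPM, *Wnt9b*KO 87.8 to 101 CPM) were called in all 23. Per kilobase of transcript, the 3 genes stood at 11.8, 109 and 218 CPM in wt. *Atp5s*, a coupling factor gene and among the least expressed nuclear members at 5.75 ± 0.959 CPM in wt, fell by 0.88 ± 0.22 in *Wnt9b*KO (adjusted p = 0.00723, and 0.0804 without wt 1).

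The head of the enzyme contained the highest levels per kilobase of the nuclear members, with *Atp5b*, the catalytic beta subunit, at 675 and *Atp5a1*, the alpha subunit, at 485 CPM per kilobase in wt. *Atp5b* was at 1457 and 1130 CPM in wt, 854, 1077 and 1056 in *Rspo2*KO, 1016, 1064 and 1035 in *Wnt9b*KO and 1026, 1109 and 1058 in DKO. Its 9 mutant libraries overlapped one another and lay below wt, and no difference from wt passed the test (-0.32 ± 0.14 with adjusted p = 0.0869 in *Wnt9b*KO). *Atp5a1* fell by 0.36 ± 0.13 in *Wnt9b*KO (adjusted p = 0.0407) and by 0.37 ± 0.13 in DKO (adjusted p = 0.0412), but these calls held in only 9 and 10 of 23 alternatives, with an adjusted p of up to 0.263. Leaving out any 1 of wt 1, wt 2, *Rspo2*KO 2, *Rspo2*KO 3, *Wnt9b*KO 2, *Wnt9b*KO 3, DKO 1 or DKO 2 ended both calls, and leaving out DKO 3 ended that in DKO. *Atp5c1*, the gamma subunit, fell by 0.49 ± 0.15 in *Wnt9b*KO (adjusted p = 0.0187), a call lost without wt 1, wt 2 or *Wnt9b*KO 1 (adjusted p up to 0.122). The epsilon subunit gene *Atp5e* changed most in the head, from 84.6 and 84.2 CPM in wt to 48.7, 28.3 and 37 CPM in *Wnt9b*KO and 45.1, 38.1 and 55.1 CPM in DKO (-1.15 ± 0.19, adjusted p = 0.000589, and -0.87 ± 0.19, adjusted p = 0.00439).

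Changes were also described against gene length. Across the 71 nuclear members, Spearman's rho between the length of the principal transcript and the log2 fold change was 0.49 in *Wnt9b*KO, 0.35 in DKO and 0.07 in *Rspo2*KO. Over 14549 protein-coding genes tested it was 0.37, 0.34 and 0.26. These are descriptions across genes that share the same libraries. The nuclear members are short, with a median of 955 nt (371 to 4715 nt) against 3046 nt for all protein-coding genes tested. With an offset for GC content and exonic length in each library, 50 nuclear members were called lower in *Wnt9b*KO (median -0.60) and 39 in DKO (median -0.42). Exonic length, used wherever this offset is named, joins all annotated exons of a gene. It can differ much from the principal transcript length, as in *Atp5l* (6443 against 544 nt). An offset for the principal transcript length was not fitted, so these counts do not show what such an offset would leave. *Uqcrq*, at 1521 nt, lay far below other members of its length.

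**Figure D4:**
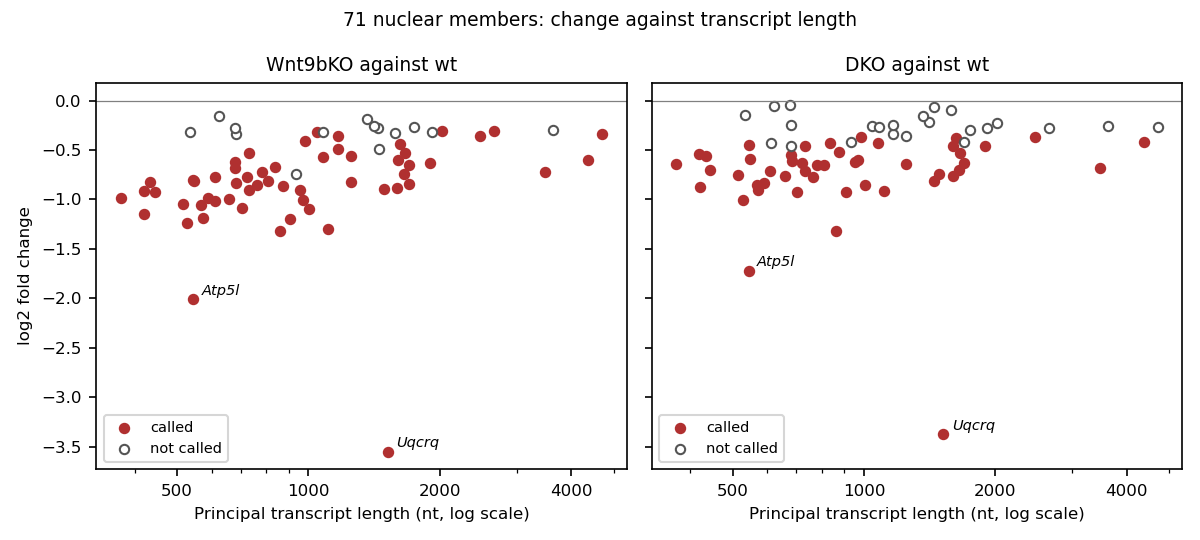
log2 fold change (vertical axis) of the 71 nuclear members against the length of their principal transcript in nt (horizontal axis, log scale) in *Wnt9b*KO and DKO against wt; each point is a gene, filled where called. Members near the short end of the 371 to 4715 nt range tend to lie lower (rho 0.49 and 0.35), and *Uqcrq* and *Atp5l* are below the rest.

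The promoters were searched for 3 motifs of factors known to act on respiratory chain genes. The RefSeq windows (GRCm38.p6, 250 bases before to 50 after the transcription start) matched 58 of the 71 nuclear members by symbol. The NRF1 motif GCATGCGC was found, on either strand, in 10 of 58 members (17.2%) and in 3.05% of 27025 genes with such a window. The YY1 motif AAGATGGC was in 10 of 58 members (17.2%) and in 3.19% of all genes, and the GABPA motif CCGGAAGT in 4 of 58 members (6.9%) and in 4.31% of all genes. Matches of different motifs can share end bases by their letters, as can the NRF1 motif and its own reverse complement, and each was counted. The 10 members with the NRF1 motif had a median log2 fold change of -0.92 in *Wnt9b*KO and the other 48 one of -0.70; for the YY1 motif the medians were -0.76 and -0.76, and for the GABPA motif -0.58 (4 members) and -0.76 (54 members). The windows below, shown 5′ to 3′ on the gene's strand with the motif in capitals, are those of the 2 NRF1-motif members with the largest falls, of a YY1-motif member that fell and of a YY1-motif member that was not called. The motif starts at base -240 in *Atp5l*, -8 in *Ndufa8*, 33 in *Ndufs6* and 29 in *Ndufa9*, counted from the start site as 0. *Ndufs6* had a log2 fold change of -1.06 and *Ndufa9* one of -0.28 in *Wnt9b*KO.
*Atp5l* (chr9:44920693-44920992, minus strand): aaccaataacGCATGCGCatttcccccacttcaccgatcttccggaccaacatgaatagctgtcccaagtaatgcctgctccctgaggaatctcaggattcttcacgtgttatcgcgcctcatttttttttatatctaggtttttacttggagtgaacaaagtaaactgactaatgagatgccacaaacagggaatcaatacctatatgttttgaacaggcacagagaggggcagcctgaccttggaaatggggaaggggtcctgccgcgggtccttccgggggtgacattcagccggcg
*Ndufa8* (chr2:36049289-36049588, minus strand): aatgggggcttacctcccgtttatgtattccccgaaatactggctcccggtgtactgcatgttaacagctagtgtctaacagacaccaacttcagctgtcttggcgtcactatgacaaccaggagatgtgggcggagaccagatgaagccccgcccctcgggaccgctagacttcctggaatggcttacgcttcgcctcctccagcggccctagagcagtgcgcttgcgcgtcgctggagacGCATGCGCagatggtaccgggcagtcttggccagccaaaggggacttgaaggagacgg
*Ndufs6* (chr13:73328433-73328732, minus strand): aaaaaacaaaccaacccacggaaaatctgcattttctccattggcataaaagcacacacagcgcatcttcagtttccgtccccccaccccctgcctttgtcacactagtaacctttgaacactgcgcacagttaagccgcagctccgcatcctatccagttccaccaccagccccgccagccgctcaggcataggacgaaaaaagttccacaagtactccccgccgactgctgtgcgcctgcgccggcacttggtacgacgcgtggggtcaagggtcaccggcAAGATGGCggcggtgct
*Ndufa9* (chr6:126849095-126849394, minus strand): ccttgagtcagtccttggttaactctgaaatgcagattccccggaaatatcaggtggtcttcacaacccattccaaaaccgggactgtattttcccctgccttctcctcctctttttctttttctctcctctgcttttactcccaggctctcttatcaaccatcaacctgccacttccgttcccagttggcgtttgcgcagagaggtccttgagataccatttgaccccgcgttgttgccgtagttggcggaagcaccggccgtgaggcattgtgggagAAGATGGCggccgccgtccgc

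The genes of the mitochondrial genome were then compared with the nuclear ones. Their summed mRNA level was 25298 and 23850 CPM in wt, 22508, 27007 and 22503 in *Rspo2*KO, 7546, 17447 and 18366 in *Wnt9b*KO and 15514, 14931 and 25260 in DKO. *Wnt9b*KO 1 was far lower than any other library, and DKO 3, one of the libraries whose *Rspo2* level goes against its label, was at the wt level. The log2 ratio of this sum to that of the nuclear members was 1.56 ± 0.08 in wt (SD, n = 2), 1.68 ± 0.15 in *Rspo2*KO, 1.28 ± 0.70 in *Wnt9b*KO and 1.60 ± 0.34 in DKO (n = 3 each). The differences of these sums from wt were -0.28 in *Wnt9b*KO, 0.12 in *Rspo2*KO and 0.03 in DKO, each smaller than the larger SD of the groups compared. The libraries, genes and summary used changed them. In *Rspo2*KO the difference was 0.20 without *Rspo2*KO 3 and 0.17 without wt 1, above the SD of 0.15. Without *mt-Co1*, *mt-Co2*, *mt-Co3* and *mt-Atp6* the differences were -0.09, 0.22 and 0.27, and with the median log2 level over members in place of the sum they were 0.45, 0.30 and 0.65, of which those in *Rspo2*KO and DKO were larger than the SD of the ratio of sums. The *Wnt9b*KO difference of the sums was 0.12 without *Wnt9b*KO 1, so that in *Wnt9b*KO the direction depends on the library and the summary used. In DKO the difference of the sums was between -0.16 and 0.16 on leaving out 1 library.

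In *Wnt9b*KO, 4 of the 12 tested mitochondrial-genome genes fell and none rose (background 16% lower), with a median log2 fold change of -0.74, the same value as the median of the nuclear members but with larger standard errors (0.25 to 0.39). The fall was called in all 3 complex IV subunits, which form the catalytic core of cytochrome c oxidase, and in 1 complex I subunit. The count was 0 without wt 1, 1 without wt 2 and 2 without *Wnt9b*KO 1, *Rspo2*KO 2 or *Rspo2*KO 3, but 7 with the replicate block or the offset for GC content and length, and 8 with both of these or without the filter, and the median was -0.44 without *Wnt9b*KO 1. In DKO 1 of 12 was called lower (background 13.1%), with a median of -0.35, and none was called without wt 1, wt 2, DKO 1 or DKO 2, while 2 were without *Wnt9b*KO 1. The DKO median was -0.66 without DKO 3, -0.19 without DKO 2 and -0.20 without wt 1. With the replicate block 2 were called lower in DKO and the median was -0.58. With the block and the offset 3 were, and the median was -0.56.

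*mt-Co2* (chrM:7013-7696), which encodes the subunit that takes electrons from cytochrome c, was at 2221 and 1859 CPM in wt, 1752, 2271 and 1757 in *Rspo2*KO, 454, 980 and 1090 in *Wnt9b*KO and 870, 832 and 1456 in DKO. Every *Wnt9b*KO and DKO library was below every wt and *Rspo2*KO library. The log2 fold change was -1.28 ± 0.30 in *Wnt9b*KO (adjusted p = 0.00493, and 0.0552 without wt 1) and -0.95 ± 0.30 in DKO (adjusted p = 0.028), the latter lost without wt 1, wt 2, DKO 1 or DKO 2 (adjusted p up to 0.18). *mt-Co3* was at 5973 and 5807 CPM in wt and at 1590, 3605 and 3696 CPM in *Wnt9b*KO (-0.99 ± 0.28, adjusted p = 0.0144, and up to 0.0796 without a wt library). *mt-Co1* was at 6464 and 6488 CPM in wt and at 2384, 4783 and 4617 CPM in *Wnt9b*KO (-0.72 ± 0.25, adjusted p = 0.0409, and up to 0.149 over its alternatives, lost without wt 1, wt 2, *Wnt9b*KO 1, *Rspo2*KO 2 or *Rspo2*KO 3, with only the compared groups in the model and with DESeq2).

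Among the mitochondrial complex I genes, *mt-Nd3* was at 751 and 521 CPM in wt and at 153, 354 and 475 CPM in *Wnt9b*KO (-0.96 ± 0.34, adjusted p = 0.045, called in 13 of 23 alternatives). The call of *mt-Nd3* was lost on leaving out either wt library, *Wnt9b*KO 1, *Wnt9b*KO 2, *Rspo2*KO 2, *Rspo2*KO 3 or DKO 1, with only the compared groups in the model and with DESeq2 (adjusted p up to 0.313). It was also lost without both libraries whose *Rspo2* level goes against the label. *mt-Nd1* was lower in every *Wnt9b*KO library (418, 1353 and 1295 CPM) than in wt (1933 and 1782 CPM), with a value of -0.86 ± 0.37 that did not pass (adjusted p = 0.0865, called in 5 of 23 alternatives), and *mt-Nd2* had -0.64 ± 0.38 (adjusted p = 0.215, called in 2). *mt-Nd4*, *mt-Nd5* and *mt-Nd6* overlapped between the groups. *mt-Nd4* was at 1076 and 1033 CPM in wt and 456, 1090 and 1159 CPM in *Wnt9b*KO, *mt-Nd5* at 880 and 846 CPM in wt and 385, 852 and 1014 CPM in *Wnt9b*KO, and *mt-Nd6*, the only one on the other strand, at 201 and 192 CPM in wt and 110, 238 and 272 CPM in *Wnt9b*KO. In each of them *Wnt9b*KO 1 was the lowest library and the other 2 were near or above wt. *mt-Nd4l* had 0 counts in all 11 libraries, where 3 counts, the limit that a count of 0 allows, are 0.268 CPM in the smallest wt library. It overlaps *mt-Nd4* over 7 bases, and the annotation release and counting mode are not given in the sources used here, so that the count of 0 is reported as a count and not as a level of expression. *mt-Co1*, *mt-Co2*, *mt-Co3* and *mt-Atp6* have near-identical copies in the nuclear genome, and reads shared with those copies were not separated. Nuclear copies of the other mitochondrial-genome genes, among them *mt-Atp8*, which overlaps *mt-Atp6*, were not examined.

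*mt-Cytb*, the only complex III subunit of the mitochondrial genome, was at 915 and 955 CPM in wt, 384, 934 and 1010 in *Wnt9b*KO and 801, 754 and 1458 in DKO, with differences of -0.27 ± 0.34 and 0.10 ± 0.34 that did not pass (adjusted p = 0.573 and 0.853). The ATP synthase genes *mt-Atp6* (3079 and 2844 CPM in wt, 834, 2014 and 2394 in *Wnt9b*KO) and *mt-Atp8* (872 and 630 CPM in wt, 152, 496 and 560 in *Wnt9b*KO) were lower in every *Wnt9b*KO library, with -0.76 ± 0.34 (adjusted p = 0.0957) and -0.90 ± 0.39 (adjusted p = 0.089), and did not pass. Both were called in 5 of 23 alternatives (no filter, the replicate block, the offset for GC content and length, that offset with the block, and without *Wnt9b*KO 3). Over all 23 their values ranged from -1.05 to -0.43 and from -1.26 to -0.51. These 2 genes share bases, so a read there cannot be given to one of them, and their counts are uncertain to that extent. The shared stretch at chrM:7927-7969 is shown on the plus strand from the mouse transcripts (GRCm38), with the start codon of *mt-Atp6* and the stop codon of *mt-Atp8* in capitals.
*mt-Atp8* and *mt-Atp6* overlap: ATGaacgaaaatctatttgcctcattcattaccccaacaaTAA

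**Figure D5:**
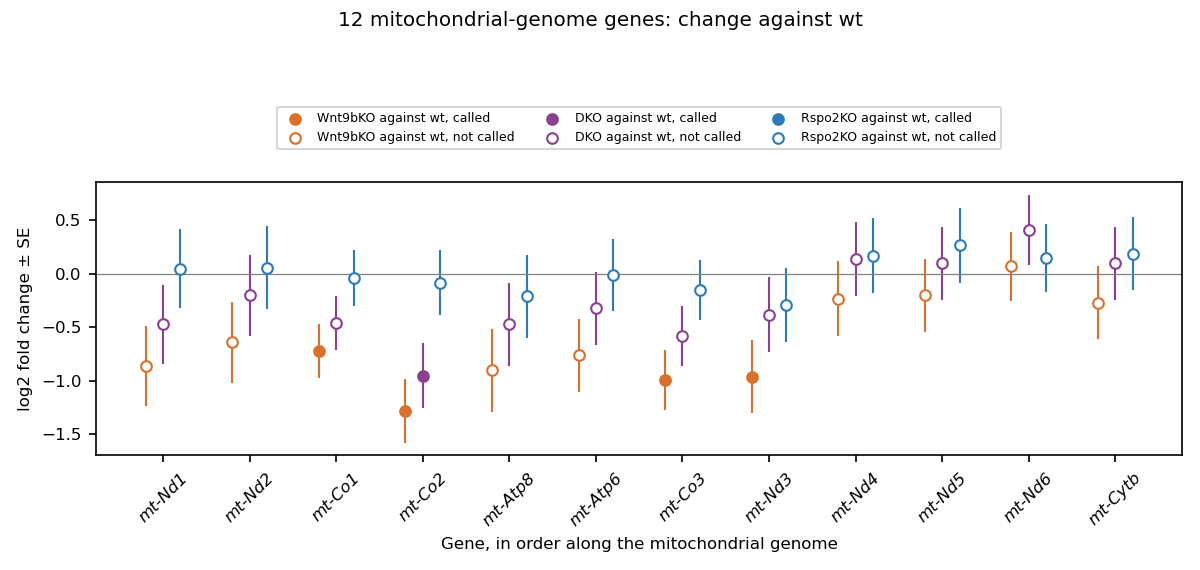
log2 fold change ± SE (vertical axis) of the 12 tested mitochondrial-genome genes in their order along the genome (horizontal axis) in *Wnt9b*KO, DKO and *Rspo2*KO against wt; filled points were called. Values in *Wnt9b*KO lie between -1.28 and -0.64 from *mt-Nd1* to *mt-Nd3* and between -0.27 and 0.07 from *mt-Nd4* to *mt-Cytb*.

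Along the mitochondrial genome, the 8 genes from *mt-Nd1* to *mt-Nd3* had negative values in *Wnt9b*KO and in DKO, whereas the 4 genes from *mt-Nd4* to *mt-Cytb* had values between -0.27 and 0.07 in *Wnt9b*KO and between 0.10 and 0.41 in DKO. In DKO only DKO 3, whose *Rspo2* level goes against its label, lay above wt in *mt-Nd4*, *mt-Nd5* and *mt-Cytb*, and their DKO values turned negative in some alternatives (-0.28 to 0.33, -0.30 to 0.29 and -0.27 to 0.27). Over the alternatives the *Wnt9b*KO values ranged from -0.42 to 0.09 in *mt-Nd4* and from -0.46 to 0.11 in *mt-Nd5*. They ranged from -0.15 to 0.38 in *mt-Nd6* and from -0.48 to 0.06 in *mt-Cytb*. In *mt-Nd2*, of the first stretch, they ranged from -0.94 to -0.25, so that the values of the 2 stretches can overlap. All of these genes come from the same 11 libraries, and the difference between the stretches was not tested. Neither mitochondrial rRNA was called in any of the 3 mutant groups. *mt-Rnr2*, the large rRNA, was at 79451 and 84988 CPM in wt, 76305, 125548 and 134058 in *Wnt9b*KO and 113802, 126500 and 189902 in DKO (0.45 ± 0.28 and 0.80 ± 0.29, adjusted p = 0.248 and 0.051). The log2 ratio of mitochondrial mRNA to rRNA was -1.82 and -1.99 in the wt libraries, between -2.45 and -2.03 in *Rspo2*KO, between -3.43 and -2.94 in *Wnt9b*KO and between -3.18 and -2.98 in DKO, so that all 6 libraries with the *Wnt9b* mutation lay below the other 5. The rRNAs took 8.93% to 19.2% of all counts, and the part of rRNA carry-over in the levels was not tested. Of 17 mitochondrial tRNAs tested, 3 were called lower (*mt-Tc*, *mt-Tn* and *mt-Ts1*) and 1 higher (*mt-Tl2*) in *Wnt9b*KO, where 16% and 16.8% of all genes were.

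To determine whether loss of *Rspo2* alone changed these genes, *Rspo2*KO was compared with wt. None of the 71 nuclear and 12 mitochondrial-genome members was called by edgeR, where 0.00577% of all genes tested were called lower and 0.0289% higher, and DESeq2 called none either. At an unadjusted p below 0.05 there were 4 nuclear members (*Ndufs6*, *Atp5b*, *Atp5l* and *Atp5g2*, named after their values were seen) and no mitochondrial-genome member, against 11.9% of all genes tested. The median log2 fold change was -0.12 for the nuclear members (-0.17 to -0.02 over the alternatives) and 0.02 for the mitochondrial-genome members (-0.13 to 0.09), and 15 of 71 nuclear members were below wt in every *Rspo2*KO library, against 15.7% of all genes tested. The largest was *Atp5b* at -0.38.

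DKO and *Wnt9b*KO were compared to see whether losing *Rspo2* as well made a further difference. None of the 83 members was called (background 0.0635% higher and 0.0577% lower), 6 nuclear and no mitochondrial-genome members had an unadjusted p below 0.05 (5.63% of all genes did), and DESeq2 called none. The median log2 difference was 0.18 for nuclear and 0.38 for mitochondrial-genome members, DKO being higher in 67 of 71 and in 12 of 12. These medians rested on single libraries: the mitochondrial one was 0.03 without DKO 3 and 0.04 without *Wnt9b*KO 1, and the nuclear one was 0.08 without DKO 3. Without *Wnt9b*KO 3 they were larger, at 0.60 (mitochondrial) and 0.25 (nuclear). Without both libraries whose *Rspo2* level goes against the label they were 0.05 (nuclear) and 0.20 (mitochondrial). *Uqcrq* differed by 0.18 ± 0.16 (adjusted p = 0.978), *Ndufa8* by -0.01 ± 0.12 (adjusted p = 0.999) and *Ndufa12* by 0.39 ± 0.14 (adjusted p = 0.618). Relative to *Rspo2*KO, 37 of 71 nuclear members were lower in DKO and none higher (background 9.07% lower and 9.17% higher), with a median of -0.42, and 1 of 12 mitochondrial-genome members, *mt-Co2*, was lower (-0.87 ± 0.27, adjusted p = 0.038). The nuclear count was 20 without *Rspo2*KO 2 or DKO 1 and 21 without *Rspo2*KO 3 or DKO 2, and the call of *mt-Co2* was lost without wt 1 or without any 1 of those 4 libraries (adjusted p up to 0.157). *Uqcrq* was lower by 3.25 ± 0.16 (adjusted p = 1.55e-08), *Atp5l* by 1.36 ± 0.15 (adjusted p = 2.68e-05) and *Ndufa8* by 1.20 ± 0.11 (adjusted p = 8.69e-06). The interaction, that is, the DKO change minus the sum of the changes in the single mutants, was called for none of the members (0.0289% of all genes higher and 0.0346% lower), with 12 nuclear members at an unadjusted p below 0.05 (9.44% of all genes) and medians of 0.25 and 0.36. The mitochondrial median was 0.01 without *Wnt9b*KO 1, 0.05 without DKO 3 and 0.59 without *Wnt9b*KO 3. The nuclear median was 0.16 without *Rspo2*KO 1 and 0.32 without *Wnt9b*KO 3. Without both libraries whose *Rspo2* level goes against the label the nuclear and mitochondrial medians were 0.15 and 0.23.

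Other genes of the respiratory chain were examined in the same fits, in which 16% of all genes were called lower and 16.8% higher in *Wnt9b*KO and 13.1% and 14.3% in DKO. Of 14 nuclear complex IV subunits tested, 10 fell and none rose in *Wnt9b*KO (median -0.68) and 8 fell in DKO (median -0.61). *Cox7a2* fell by 1.20 ± 0.17 in *Wnt9b*KO (adjusted p = 0.000152) and *Cox7b* by 1.18 ± 0.19 (adjusted p = 0.000436). Of 6 genes of complex II and cytochrome c, 3 fell in *Wnt9b*KO and 1 rose, and 2 fell and 1 rose in DKO. *Cyc1*, which encodes the cytochrome c1 subunit of complex III under a symbol outside the 4 prefixes, fell by 1.45 ± 0.12 (adjusted p = 1.7e-06), and *Sdha*, the flavoprotein of complex II, rose by 0.84 ± 0.14 (adjusted p = 0.000525). Both moved the same way in DKO (-1.37 ± 0.12 and 0.83 ± 0.14). Of 27 other assembly factors, 8 fell and 1 rose in *Wnt9b*KO, as many as in DKO. *Lyrm7*, a complex III assembly factor, fell by 1.60 ± 0.40 (adjusted p = 0.00705), and *Cox17*, a copper chaperone, rose by 0.66 ± 0.15 (adjusted p = 0.00341).

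The genes that maintain and express the mitochondrial genome were described in the same way. Of 23 genes of mitochondrial transcription and RNA processing, 7 fell and 2 rose in *Wnt9b*KO (median -0.24), and 3 fell and 2 rose in DKO (median -0.18), where the share that fell is that of all genes. *Tefm*, a transcription elongation factor, fell by 0.63 ± 0.16 (adjusted p = 0.00715), and *Slirp*, an RNA-binding protein that stabilises mitochondrial mRNAs, fell by 0.80 ± 0.21 (adjusted p = 0.0104). Both were named after their values were seen, and the genes of this list that rose are not named. Of 9 genes of mitochondrial DNA replication 3 fell and 1 rose in each of *Wnt9b*KO and DKO. Of 76 mitochondrial ribosomal protein genes 50 fell and 1 rose in *Wnt9b*KO (median -0.47), and 39 fell and 1 rose in DKO (median -0.38). Among 9 regulators of respiratory genes 4 rose and 1 fell in *Wnt9b*KO (median 0.48), and 3 rose and 1 fell in DKO (median 0.43). *Ppargc1a*, the coactivator PGC-1 alpha, rose in *Wnt9b*KO (adjusted p = 0.0115) and by 1.20 ± 0.27 in DKO (adjusted p = 0.00489). *Gabpa* rose by 0.89 ± 0.10 in *Wnt9b*KO (adjusted p = 4.07e-05), while *Gabpb1* fell by 0.39 ± 0.10 (adjusted p = 0.00972). The exons of *Gabpa* overlap those of *Atp5j* on the other strand, and strand use in counting is not given in the sources used here.

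Markers of other cell types and small nuclear RNAs were examined beside these genes. The summed level of 10 erythroid markers was 4026 and 5001 CPM in wt, 4573 to 5888 in *Rspo2*KO, 1843 to 2465 in *Wnt9b*KO and 1800 to 2917 in DKO. Against wt, 5 of the 10 were called lower in *Wnt9b*KO and 6 in DKO, where 16% and 13.1% of all genes were. Relative to *Rspo2*KO, 7 of the 10 were called lower in DKO (background 9.07%). The summed level of 15 heart and striated muscle markers was 31.74 and 138.2 CPM in wt, 32.75 to 37.86 in *Rspo2*KO, 18.46 to 50 in *Wnt9b*KO and 29.18 to 36.93 in DKO. It was high in 1 wt library only, and 6 of the 10 tested were called lower in *Wnt9b*KO and 6 in DKO. Of these 15 markers 2 were at 1 CPM or more in every library, and Myod1 was below 1 CPM in all. The 10 neuron markers summed to 613.3 and 699.9 CPM in wt, 746.9 to 834.1 in *Rspo2*KO, 362.3 to 564.8 in *Wnt9b*KO and 681.3 to 756.7 in DKO, with 2 of 10 called lower and none higher in *Wnt9b*KO and 4 higher and none lower in DKO. The facial mesenchyme markers summed to 1210 and 1287 CPM in wt, 925.4 to 998.8 in *Rspo2*KO, 861.5 to 1545 in *Wnt9b*KO and 1010 to 1130 in DKO, so that the sums of *Rspo2*KO and DKO lay below wt and *Wnt9b*KO overlapped with it. Of these 15 markers none was called in *Rspo2*KO, where 0.00577% of all genes were called lower. In DKO 1 was called lower (background 13.1%), and in *Wnt9b*KO 1 was called higher (background 16.8%). Small nuclear RNAs summed to 351.6 and 353 CPM in wt, 385.1 to 419.2 in *Rspo2*KO, 74.68 to 80.4 in *Wnt9b*KO and 70.06 to 82.65 in DKO, which splits the libraries in the same way as *Uqcrq*. The part of these measures in the respiratory chain result was not tested, and how the libraries with the *Wnt9b* mutation were prepared or handled cannot be told apart from their genotype. Of the nuclear members, 28 have exons that overlap those of another gene, 5 of them on the same strand, and 10 pseudogenes with the same symbol prefixes are in the files. Reads shared with these were not separated, and the levels of the members concerned are uncertain to that extent.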

How the data were processed

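RNA from facial process explants at E10.5 was sequenced in single-end reads of 50 bp, which the authors trimmed with cutadapt (reads left with fewer than 30 bp were dropped), aligned to GRCm38 by STAR and assigned to genes by HTSeq. The authors deposited whole-number counts, 1 file per library, without normalization. The annotation release, the strand setting and the use of poly(A) selection are not given in the sources used here, and versions of these tools are not given either. The submitters' processing notes also name DESeq2.

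Groups and replicate numbers were taken from the sample titles. Of 38561 gene identifiers 36723 matched the GENCODE annotation of GRCm38, from which symbols, positions and lengths were taken, and promoters came from RefSeq (GRCm38.p6). Genes were filtered with filterByExpr by genotype, scaled with TMM (factors 0.9153 to 1.096) and fitted with the quasi-likelihood test of edgeR 4.0.16 in R 4.3.3, two-sided in 1 model of all 11 libraries. Benjamini-Hochberg adjustment covered the 17317 genes tested, and a gene was called at an adjusted p below 0.05. The SE is the log2 fold change divided by the square root of F. Sums and ratios over members were given without a test. Levels per kilobase use the length of the principal transcript. The precision of a level is set by total counts of 11136166 to 18017344 per library, and the limit of 3 counts for a gene at 0 covers counting error only.

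The members and gene lists were chosen with earlier results of these data known. Named genes are all mitochondrial-genome members, up to 2 genes called higher and 2 called lower with the largest change per comparison and role, X-linked members, the genes of the c ring, *Ndufa4* and *Ndufa4l2*, and the 3 nuclear members highest and the 3 lowest in level per kilobase; genes of other lists were named by their calls after their values were seen. Alternatives were DESeq2 1.42.0, other scaling (RLE, upper quartile, total counts alone, mitochondrial-genome genes left out), no filter, a minimum of 10 counts per library, a model of the compared groups alone, replicate numbers as a block, an offset from a loess fit on GC content and exonic length (span 0.3; 98.3% of genes tested have both), a threshold after the paper's (p below 0.05, taken here as unadjusted, and a change over 1.5-fold), and leaving out libraries. Python 3.11.15 with pandas 2.3.3, numpy 2.4.6, scipy 1.17.1 and matplotlib 3.10.9 was used for tables and plots.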

Additional observations from a re-analysis of the deposited data

How the results depend on the processing

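No call of a named gene changed sign under the alternatives run, and of 78 calls of named genes 44 held in every one of them (21 of 31 in *Wnt9b*KO against wt, 11 of 26 in DKO against wt and 12 of 21 in DKO against *Rspo2*KO). In *Wnt9b*KO between 44 and 60 nuclear members were called lower, and leaving out 1 library at a time gave 47 to 59. Leaving out 1 library gave 21 to 53 nuclear members in DKO against wt and 20 to 53 in DKO against *Rspo2*KO, and for mitochondrial-genome members 0 to 6 in *Wnt9b*KO, 0 to 2 in DKO and 0 to 1 in DKO against *Rspo2*KO. The number of mitochondrial-genome members called in *Wnt9b*KO, 4, became 8 without the filter, 2 with only the compared groups in the model, 7 with the offset for GC content and length, 8 with that offset and the block, 2 with DESeq2 and 7 under the threshold of an unadjusted p below 0.05 and a change over 1.5-fold. In DKO against wt it became 6 without the filter (5 lower, and *mt-Nd6* higher), 2 with only the compared groups and 3 with the offset and the block. Without the filter it was 1 in DKO against *Wnt9b*KO (*mt-Nd3*, higher), 4 in DKO against *Rspo2*KO and 1 in the interaction (*mt-Nd3*), and the interaction of nuclear members gave 1 (*Atp5mpl*). DESeq2 gave 0 mitochondrial-genome members in DKO against *Rspo2*KO. The threshold on unadjusted p and fold gave 21 nuclear members in DKO against *Rspo2*KO and 3 in the interaction. Taking the median over members in place of the sum, the difference in the log2 ratio of mitochondrial to nuclear level was 0.45 in *Wnt9b*KO, 0.30 in *Rspo2*KO and 0.65 in DKO, where the sums gave -0.28, 0.12 and 0.03. Leaving out 1 library moved these to between -0.50 and 0.12, 0.06 and 0.20, and -0.16 and 0.16. Replicate numbers are shared between groups, but the sample titles state no pairing, and so the main model did not pair the samples. Correlations between the deviations of same-numbered samples were above 0.1 in 3 of 15 pairs, a count that does not decide whether samples were paired. The 6 pairs with a wt library ranged from -0.105 to 0.0245. The deviations of wt 1 and wt 2 from their group mean mirror each other, so these pairs hold little on pairing. The 9 pairs between mutant groups ranged from 0.0415 to 0.236, and in 9 of these the same number gave the highest correlation for both samples, a hint from the data and not from the design. With the replicate number as a block, 58 nuclear and 7 mitochondrial-genome members were called in *Wnt9b*KO and 56 and 2 in DKO. The cause of these changes was not tested.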
